A study of Mus musculus with 57 samples.

Results

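The 10 transcription factor genes described here were *Fos*, *Fosb*, *Fosl1*, *Fosl2*, *Jun*, *Junb*, *Jund*, *Atf3*, *Egr1* and *Myc*. They were taken by symbol from the count tables of mouse hearts, which list 25416 genes for an acute and 54658 for a chronic study of doxorubicin (Doxo), an anthracycline used against cancer that is toxic to the heart. All 10 were in both tables, and all 10 passed the filter on low counts that left 14240 acute and 14960 chronic genes for testing. The question was how Doxo changed gene expression in the heart and how nicotinamide mononucleotide (NMN), a precursor of NAD+, changed it when given alongside.

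All hearts came from wild-type male C57BL/6 mice. The acute study had 14 Ctrl hearts, 13 from mice given Doxo and 13 from mice given both (Doxo-NMN), collected on day 5 after 1 injection of 20 mg/kg Doxo. NMN was injected i.p. at 180 mg/kg/day from 5 days before Doxo, saline was injected where no drug was given, and hearts were taken 2 h after the last NMN injection from mice bought at 9 weeks of age. The chronic study had 5 Ctrl hearts, 6 Doxo hearts and 6 with NMN, collected on day 60 after the first of 5 injections of 4 mg/kg Doxo. NMN was given at 500 mg/kg/day in drinking water. The mice were 14 to 16 weeks old when injected, not at collection. No group received NMN without Doxo, and only mice alive at collection gave a heart. The acute and chronic libraries were made at different sites, so study, site, age, route and time point cannot be told apart.

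The AP-1 factor is a dimer of basic leucine zipper (bZIP) proteins, most often a FOS family member with a JUN family member, that binds a short DNA motif in promoters and enhancers. Many of its genes are immediate early genes: a growth factor, stretch or stress signal passes through MAP kinases to factors already bound at their promoters, and transcription starts within minutes without new protein. *Egr1* and *Atf3* are induced in the same way, and *Myc* follows closely. In the heart these genes are known for their rapid answer to pressure load and ischaemia, which fades unless the signal is renewed.

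Promoter windows of 4 genes are shown because *Fos*, *Junb* and *Atf3* were higher in acute Doxo hearts and *Jun* was not. Each window is the 250 bases before the transcription start in RefSeq, on build GRCm38.p6, and 7 of the 10 genes had an entry. Positions count back from the start, with -1 the base next to it, and capitals mark the motifs found on either strand. The *Fos* window is chr12:85473640-85473889 (plus strand), *Junb* chr8:84978749-84978998 (minus strand), *Atf3* chr1:191183334-191183583 (minus strand) and *Jun* chr4:95052223-95052472 (minus strand). In GENCODE M21 the first, second and last of these lie outside annotated exons, and the *Atf3* window lies in an intron of its longer transcript and ends inside the first exon of its shorter transcript.
Fos: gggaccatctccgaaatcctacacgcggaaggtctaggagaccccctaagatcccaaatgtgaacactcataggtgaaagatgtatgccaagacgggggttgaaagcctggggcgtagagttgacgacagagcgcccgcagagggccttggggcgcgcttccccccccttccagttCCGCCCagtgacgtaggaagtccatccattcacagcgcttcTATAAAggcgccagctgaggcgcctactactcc
Junb: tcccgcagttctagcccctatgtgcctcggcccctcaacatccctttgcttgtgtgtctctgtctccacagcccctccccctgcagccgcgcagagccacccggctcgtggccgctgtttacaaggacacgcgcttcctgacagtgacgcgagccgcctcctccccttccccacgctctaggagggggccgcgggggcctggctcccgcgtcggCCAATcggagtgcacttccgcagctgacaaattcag
Atf3: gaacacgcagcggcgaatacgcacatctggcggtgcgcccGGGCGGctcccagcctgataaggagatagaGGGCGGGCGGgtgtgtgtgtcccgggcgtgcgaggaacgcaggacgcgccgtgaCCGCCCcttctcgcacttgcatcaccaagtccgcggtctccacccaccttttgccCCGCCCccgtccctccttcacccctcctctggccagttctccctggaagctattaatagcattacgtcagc
Jun: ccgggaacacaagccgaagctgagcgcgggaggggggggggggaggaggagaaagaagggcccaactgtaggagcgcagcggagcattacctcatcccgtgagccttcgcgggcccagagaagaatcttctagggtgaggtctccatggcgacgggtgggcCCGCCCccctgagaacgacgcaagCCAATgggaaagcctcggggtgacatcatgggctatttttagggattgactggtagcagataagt
The *Fos* window held a TATA box (TATAAA) at -33 to -28 and a GC box (GGGCGG) at -74 to -69. The *Junb* window held a CCAAT box (CCAAT) at -36 to -32, and the *Jun* window held a CCAAT box at -65 to -61 and a GC box at -89 to -84. The *Atf3* window held 5 GC boxes, a pair of which shares bases. Over 32851 promoters of the same length, 32.7% held a GC box, 33.8% a CCAAT box and 12.4% a TATA box. None of the 4 windows held the AP-1 site (TGANTCA, in 6.75% of promoters), the full cAMP response element (TGACGTCA, 1.55%), the CArG box (1.47%), the STAT site (TTCNNNGAA, 7.02%), the E box (CACGTG, 6.02%) or the EGR site (GCGGGGGCG, 2.57%). The search took only these patterns within the 250 bases. Variants, such as TGACATCA in the *Jun* window, and sites farther upstream were not searched for. In the windows not printed, *Fosb* held 3 GC boxes and *Fosl2* held 1, each gene also held an EGR site that overlaps a GC box, and *Jund* held none of the motifs. The *Fosl2* window lies within the first exon of its GENCODE transcript, in the 5′ UTR, and the *Jund* window ends at chr8:70697738, before its GENCODE gene start at chr8:70698949, so neither adjoins the annotated start.

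Total counts per heart were 32409622 to 52102850 in the acute and 17769886 to 23862287 in the chronic study, and levels are given as CPM, which are counts scaled to a common library total, here after TMM normalisation. A count of 3 was worth 0.0576 to 0.0926 CPM in the acute and 0.126 to 0.169 CPM in the chronic hearts. All members were above that floor in all 57 hearts. Of the markers for other cell types, the summed level of 5 red cell genes was 437 to 4311 CPM in acute Ctrl, 1.19 to 338 CPM in Doxo and 0.209 to 2.81 CPM in Doxo-NMN hearts. Atrial genes also varied between hearts: *Myl4* was at or above 100 CPM in 8 of 14 Ctrl, 5 of 13 Doxo and 4 of 13 Doxo-NMN hearts. Acute Doxo replicate 6, chronic Doxo replicate 2 and chronic Doxo-NMN replicate 3 stood apart from their groups. For some members, but not all, the changes are also given without them. The 6 cardiomyocyte markers were present in all groups, at a summed 28312 to 81894 CPM. Their acute medians were 63175, 50864 and 68508 CPM in Ctrl, Doxo and Doxo-NMN hearts. By the acute thresholds given below, *Tnnt2* was higher and *Myh6* and *Actc1* lower in Doxo vs. Ctrl. Of 5 markers each, 2 of fibroblasts (*Col1a1*, *Col3a1*), 1 of endothelium (*Kdr*) and 2 of macrophages (*Adgre1*, *Csf1r*) were also lower, and none higher (30.1% of all genes passed). In whole hearts, fewer cells of a type and less RNA per cell cannot be told apart.

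In acute Doxo hearts, 6 of the 10 factors were higher than in Ctrl by at least 1.5-fold at an adjusted p under 0.05 (edgeR quasi-likelihood test), and none was lower. Over all genes tested, 30.1% were called in this comparison, 14.7% as higher and 15.4% as lower. The 6 were *Myc*, *Junb*, *Fosl2*, *Fos*, *Atf3* and *Egr1*, with changes of 1.17 to 2.98 on the log2 scale. The median log2 fold change of the 10 was 1.38, against -0.0016 over all genes. In Doxo-NMN hearts the same 6 genes were lower than in Doxo hearts (17.1% of all genes called, 8.88% lower and 8.17% higher), with a median over the 10 of -1.66 against -8e-04 over all genes. Both comparisons share the Doxo hearts.

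*Fos*, the founding FOS family member (chr12:85473890-85477273, plus strand, GRCm38, GENCODE M21, as for the positions that follow), ranged from 0.821 to 19.2 CPM in Ctrl (median 4.0004), from 2.61 to 129 CPM in Doxo (median 16.3) and from 1.21 to 7.19 CPM in Doxo-NMN hearts (median 2.80). Only 6 of 13 Doxo hearts lay above every Ctrl heart, and the highest of them, replicate 13, was far above the next at 71.5 CPM. *Fos* was 4.68-fold higher in Doxo vs. Ctrl (log2 2.23 ± 0.49 SE, adjusted p = 1.26e-04, edgeR) and 8.95-fold lower in Doxo-NMN vs. Doxo (log2 -3.16 ± 0.52, adjusted p = 9.11e-06). Without Doxo replicate 13 the log2 changes were 1.76 and -2.70. Among hearts with high *Myl4* the Doxo effect was 0.59 (adjusted p = 0.252), and among those with low *Myl4* it was 3.41, so the call held in the latter class alone.

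*Fosl2* (chr5:32135801-32157842, plus strand), which encodes FRA-2, was raised in nearly all Doxo hearts. It ranged from 24.8 to 40.5 CPM in Ctrl (median 31.955), from 28.4 to 393 CPM in Doxo (median 199) and from 36.1 to 90.8 CPM in Doxo-NMN hearts (median 57.8). All Doxo hearts except replicate 6 lay above every Ctrl heart. The gene was 6.79-fold higher in Doxo vs. Ctrl (log2 2.76 ± 0.25, adjusted p = 4.07e-11) and 3.84-fold lower in Doxo-NMN vs. Doxo (log2 -1.94 ± 0.25, adjusted p = 4.38e-07).

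The other 2 FOS family genes did not pass the test. *Fosb*, whose protein pairs with JUN proteins as FOS does, was low in all groups, with medians of 1.13, 1.22 and 0.647 CPM in Ctrl, Doxo and Doxo-NMN hearts. Its Doxo effect was 0.19 (95% interval -0.40 to 0.77, adjusted p = 0.577). *Fosl1*, which encodes FRA-1, had medians of 1.71, 1.504 and 1.44 CPM and a Doxo effect of -0.04 (-0.34 to 0.25, adjusted p = 0.798). In Doxo-NMN vs. Doxo the changes were -0.47 for *Fosb* (adjusted p = 0.177) and -0.16 for *Fosl1* (adjusted p = 0.379). The *Fosb* change was -1.03 and called (adjusted p = 0.0291, edgeR) among hearts with high *Myl4*, which were 4 Doxo-NMN and 5 Doxo hearts. It was also called, at -0.71, without Doxo-NMN replicate 5, the highest heart of its group at 2.575 CPM.

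Among the JUN family, *Junb* (chr8:84974484-84978718, minus strand), a partner of FOS proteins that can hold back *Jun* activity, was higher and *Jun* was not called. *Junb* ranged from 10.9 to 28.8 CPM in Ctrl (median 17.9), from 16.2 to 304 CPM in Doxo (median 82.6) and from 14.3 to 31.3 CPM in Doxo-NMN hearts (median 16.8). Of the Doxo hearts, 10 of 13 lay above every Ctrl heart, while the Ctrl and Doxo-NMN ranges were much alike. *Junb* was 7.01-fold higher in Doxo vs. Ctrl (log2 2.81 ± 0.34, adjusted p = 8.57e-09) and 6.80-fold lower in Doxo-NMN vs. Doxo (log2 -2.76 ± 0.35, adjusted p = 4.27e-07).

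*Jun* (chr4:95049034-95052222, minus strand), the most abundant member per kb of merged exons in Ctrl hearts, lay between 35.9 and 84.1 CPM in Ctrl, 48.1 and 135 CPM in Doxo and 45.0 and 87.2 CPM in Doxo-NMN hearts, with medians of 62.9, 66.0 and 63.5 CPM. The Doxo effect was 0.25 (95% interval -0.00 to 0.50, adjusted p = 0.0751), and Doxo-NMN vs. Doxo gave -0.20 (adjusted p = 0.190). *Jund*, the JUN gene with the steadiest expression in most tissues, had medians of 25.3, 31.2 and 26.3 CPM and passed the adjusted p without reaching 1.5-fold. It was 1.35-fold higher in Doxo vs. Ctrl (log2 0.44 ± 0.10, adjusted p = 3.52e-04) and changed by -0.42 ± 0.11 in Doxo-NMN vs. Doxo (adjusted p = 0.00124). The 2 genes have an antisense RNA on the opposite strand (*Junos* and *Gm11175*), *Junb* overlaps *Prdx2*, *Fosl1* overlaps *Ccdc85b* and *Atf3* overlaps the small RNA gene *Gm24748*. The strand setting of the counting was not given in the sources used here, so reads from such pairs cannot be told apart.

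*Atf3* (chr1:191170296-191218039, minus strand), a stress-induced bZIP factor that mostly represses its targets, ranged from 8.83 to 42.5 CPM in Ctrl (median 19.2), from 12.4 to 159 CPM in Doxo (median 47.6) and from 6.51 to 65.7 CPM in Doxo-NMN hearts (median 19.1). Of the Doxo hearts, 9 of 13 were above every Ctrl heart. *Atf3* was 3.02-fold higher in Doxo vs. Ctrl (log2 1.60 ± 0.33, adjusted p = 6.50e-05) and 2.603-fold lower in Doxo-NMN vs. Doxo (log2 -1.38 ± 0.34, adjusted p = 8.72e-04).

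*Egr1*, a zinc finger factor induced by the same signals as *Fos*, ranged from 8.85 to 65.4 CPM in Ctrl (median 16.8), from 9.61 to 168 CPM in Doxo (median 34.1) and from 5.40 to 21.5 CPM in Doxo-NMN hearts (median 11.7). The groups overlapped widely, and 4 of 13 Doxo hearts were above every Ctrl heart. *Egr1* was 2.25-fold higher in Doxo vs. Ctrl (log2 1.17 ± 0.34, adjusted p = 0.00284) and 4.50-fold lower in Doxo-NMN vs. Doxo (log2 -2.17 ± 0.36, adjusted p = 1.05e-05). The Doxo call was lost with limma voom and sample weights (log2 0.62, adjusted p = 0.121) and among hearts with high *Myl4* (0.37, adjusted p = 0.379), while among those with low *Myl4* the change was 1.72.

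*Myc* (chr15:61985391-61990374, plus strand), which encodes a factor that drives ribosome production and growth, had the largest Doxo effect of the 10. It ranged from 2.12 to 4.75 CPM in Ctrl (median 3.20), from 2.84 to 57.1 CPM in Doxo (median 18.4) and from 2.34 to 12.97 CPM in Doxo-NMN hearts (median 5.59). All Doxo hearts except replicate 6 lay above every Ctrl heart. *Myc* was 7.89-fold higher in Doxo vs. Ctrl (log2 2.98 ± 0.32, adjusted p = 8.26e-10) and 4.15-fold lower in Doxo-NMN vs. Doxo (log2 -2.05 ± 0.32, adjusted p = 3.79e-06).

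**Figure D1:**
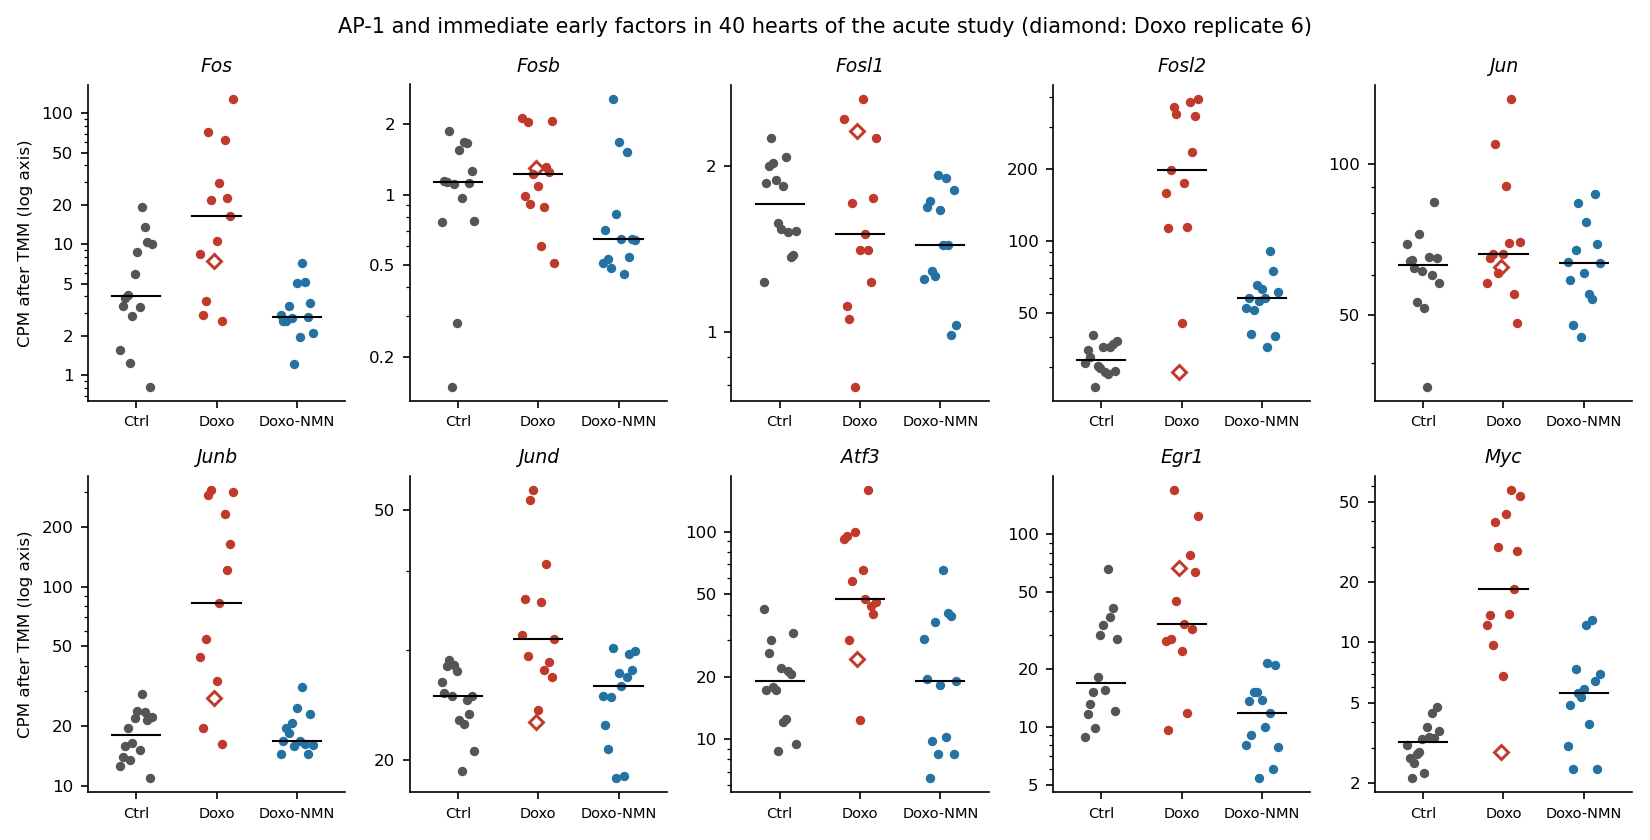
CPM after TMM scaling (log axis) of each member in every acute heart by group, where a point is a heart, the bar is the median and the diamond is Doxo replicate 6. *Fosl2* and *Myc* in Doxo hearts lie above every Ctrl heart except in the diamond, *Jun*, *Fosb* and *Fosl1* overlap between groups, and Doxo hearts spread most for *Fos*, from 2.61 to 129 CPM.

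Compared with Ctrl, Doxo-NMN hearts differed in 3 of the 10 members (7.11% of all genes called). *Fosl2* was 1.77-fold higher (log2 0.82 ± 0.24, adjusted p = 0.00973), with 11 of 13 Doxo-NMN hearts above every Ctrl heart. *Myc* was 1.90-fold higher (log2 0.93 ± 0.31, adjusted p = 0.0244), with 9 of 13 hearts above. *Egr1* was 1.998-fold lower (log2 -0.999 ± 0.35, adjusted p = 0.0304). Within the low and high *Myl4* classes, which hold fewer hearts, the changes were 0.97 and 0.63 for *Fosl2*, 0.95 and 0.72 for *Myc* and -0.77 and -1.10 for *Egr1*, and none was called (adjusted p from 0.0934 to 0.335). The *Egr1* call was also lost without Ctrl replicate 10 or 12 or Doxo-NMN replicate 11 (log2 -0.94 to -0.80), and the *Myc* call without Doxo-NMN replicate 8 or 10 (0.80 and 0.78) and with limma voom (0.66, adjusted p = 0.0509). *Fos* (log2 -0.94, adjusted p = 0.158) and *Junb* (0.04, adjusted p = 0.936) were not called, although *Fos* was called at the same change where only the 2 groups were fitted (adjusted p = 0.0421, edgeR).

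Per kb of merged exons, which allows levels of different genes to be set side by side, the order in Ctrl hearts was *Jun* (19.4 ± 3.44 CPM per kb, SD, n = 14), *Jund* (15.02 ± 1.73), *Atf3* (9.64 ± 4.41), *Junb* (8.03 ± 2.26), *Egr1* (5.42 ± 3.59), *Fosl2* (3.38 ± 0.481), *Fos* (2.71 ± 2.28), *Myc* (1.18 ± 0.283), *Fosl1* (0.846 ± 0.153) and *Fosb* (0.177 ± 0.0807). Neighbours from *Atf3* down to *Myc* differed by less than the larger of their SDs, and the others by more. In Doxo hearts *Junb* came first at 56.3 ± 49.4, followed by *Atf3* at 29.1 ± 18.5, *Jun* at 23.04 ± 7.63 and *Fosl2* at 22.9 ± 13.4 CPM per kb (n = 13), and the distances between neighbours were within the larger SD. In Doxo-NMN hearts *Jun* (20.1 ± 4.02) and *Jund* (15.2 ± 2.37) were again the highest.

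The library labelled Doxo replicate 6 stood apart. It had the lowest *Fosl2* (28.4 CPM, others 45.5 to 393), *Myc* (2.84 CPM, others 6.83 to 57.1) and *Jund* (23.03 CPM) of the 13 Doxo hearts. Its *Junb* was 27.5, *Fos* 7.48 and *Atf3* 24.5 CPM, with 2, 3 and 1 of the other 12 Doxo hearts below it. Its *Egr1* was 66.5 CPM, above 9 of the other 12. Its red cell genes summed to 338 CPM, against 1.19 to 3.85 CPM in the other Doxo hearts, and its neutrophil genes to 2.54 CPM, the lowest of the group (others 3.74 to 294, Ctrl 1.401 to 5.42). Without it the Doxo effects were 2.86 for *Fosl2*, 2.90 for *Junb* and 3.08 for *Myc*. The part of these markers in its values was not tested. Over the whole group, 4 of 4 tested neutrophil genes were higher and 5 of 5 red cell genes lower in Doxo vs. Ctrl. In Doxo-NMN vs. Doxo, 3 of 4 neutrophil genes (median log2 fold change -1.73) and 5 of 5 red cell genes were lower. Their part in the members' changes was not tested.

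**Figure D2:**
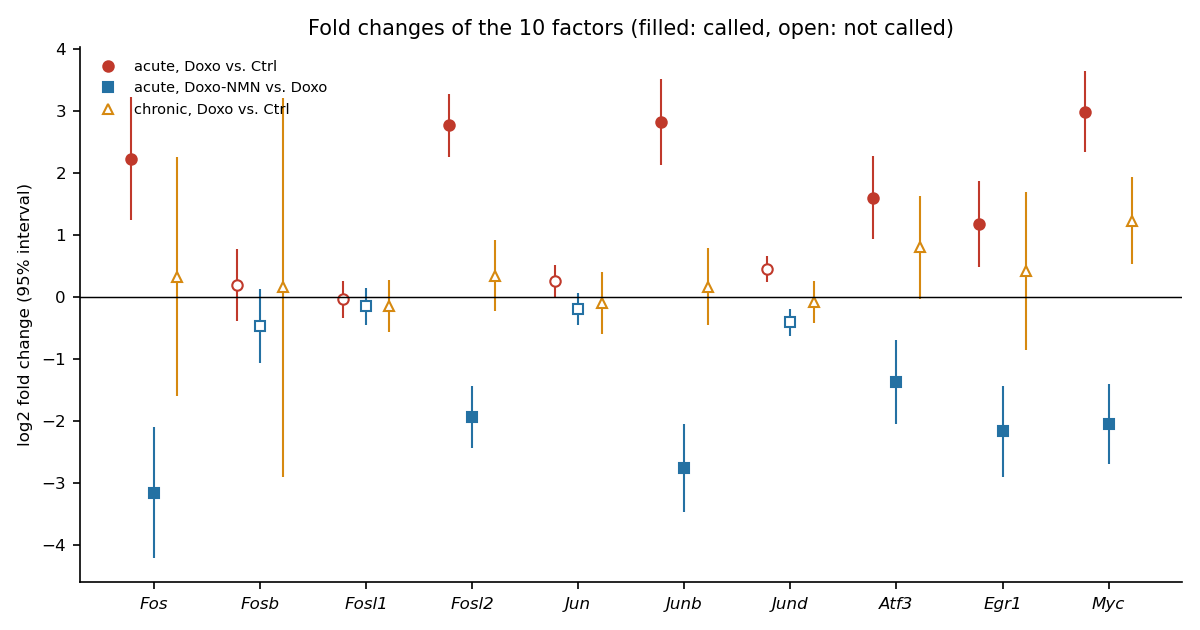
Log2 fold change of each member with its 95% interval (edgeR) for acute Doxo vs. Ctrl, acute Doxo-NMN vs. Doxo and chronic Doxo vs. Ctrl, with filled points for called changes. The same 6 members have filled points above 0 in acute Doxo vs. Ctrl and below 0 in acute Doxo-NMN vs. Doxo. No chronic point is filled.

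Some pairs of members also varied together between hearts of 1 group. No such count was made over pairs of all tested genes, so whether this is particular to the members was not tested. Over 45 pairs a group, the number of pairs with an adjusted permutation p under 0.05 (Pearson, 100000 resamples) was 3 in Ctrl, 8 in Doxo and 6 in Doxo-NMN hearts, and all but 1 of those in Doxo-NMN were positive. In Ctrl hearts *Fos* with *Junb* had r = 0.95 and rho = 0.92 (permutation p = 1e-05 for both, the smallest these permutations can give, adjusted 0.00045). *Fos* with *Egr1* had r = 0.91 (permutation p = 2e-05, adjusted 0.00045) and rho = 0.87 (0.00012, adjusted 0.0018). *Junb* with *Egr1* had r = 0.92 (permutation p = 3e-05, adjusted 0.00045) and rho = 0.90 (6e-05, adjusted 0.00135). Without the 2 hearts farthest from the median of the first gene, r was 0.92, 0.93 and 0.94. Within the hearts of high and low *Myl4*, r was 0.94 and 0.97, 0.97 and 0.93, and 0.95 and 0.91, so that the 3 genes varied together in Ctrl hearts of either class.

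In Doxo hearts *Fosl2* with *Myc* had r = 0.89 (permutation p = 5e-05, adjusted 0.0018) and rho = 0.85 (0.00059, adjusted 0.00664). *Fos* with *Junb* had r = 0.88 (permutation p = 8e-05, adjusted 0.0018) and rho = 0.85 (0.0004, adjusted 0.006). *Fosl2* with *Junb* had r = 0.81 (permutation p = 0.00036, adjusted 0.00405) and rho = 0.91 (8e-05, adjusted 0.0036). Without the 2 farthest hearts r was 0.74, 0.83 and 0.97, and among the 8 hearts with low *Myl4* it was 0.95, 0.92 and 0.83. *Fosl2* with *Myc* had r = -0.23 and 0.11 in Ctrl hearts of high and low *Myl4*, and 0.74 in the 9 Doxo-NMN hearts with low *Myl4*. Over all 13 Doxo-NMN hearts this pair had r = 0.74 (permutation p = 0.00438, adjusted 0.0462) and rho = 0.69 (0.01195, adjusted 0.111). The high *Myl4* classes of Doxo and Doxo-NMN held too few hearts for a value. Without Doxo replicate 6, 9 pairs passed. In Doxo-NMN hearts *Junb* with *Egr1* alone passed by both measures, with r = 0.79 (permutation p = 0.00098, adjusted 0.0441) and rho = 0.86 (0.00018, adjusted 0.0081), and r was 0.79 without the 2 farthest hearts and 0.87 within low *Myl4*. These genes were measured in the same libraries, and no test compared the correlations between groups.

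**Figure D3:**
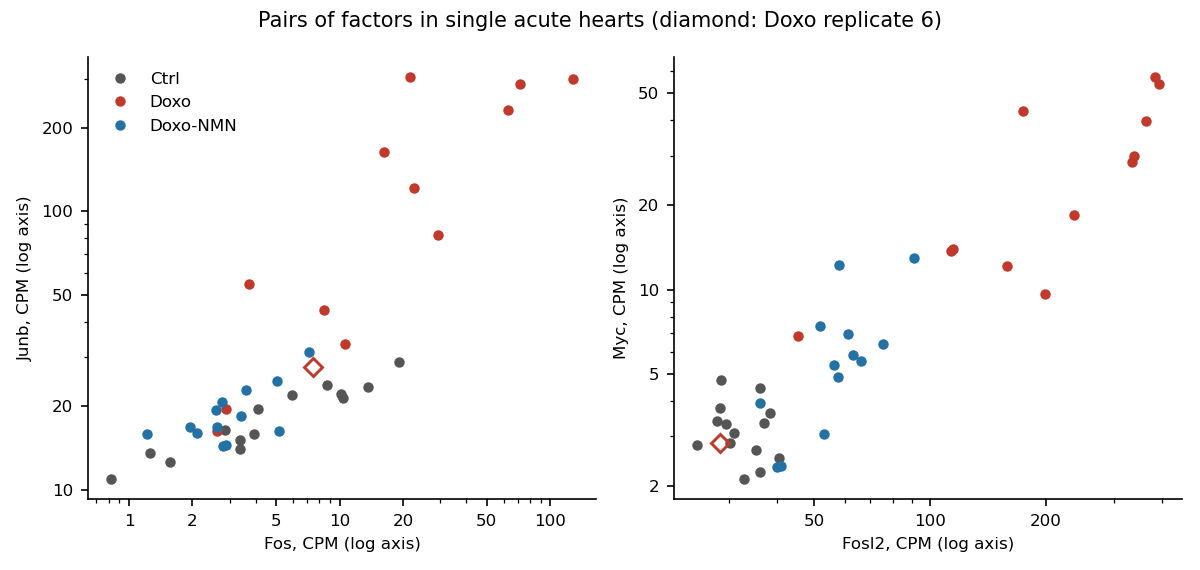
CPM of *Fos* against *Junb* and of *Fosl2* against *Myc* in every acute heart, both axes on a log scale, coloured by group. *Fos* and *Junb* lie along a line in Ctrl and Doxo hearts (r = 0.95 and 0.88). *Fosl2* and *Myc* do so in Doxo hearts (r = 0.89) and stay at low levels of both in Ctrl hearts (r = -0.19). In Doxo-NMN hearts r was 0.66 for *Fos* with *Junb* and 0.74 for *Fosl2* with *Myc*.

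Across the 40 acute hearts, after each group's mean was taken away, the genes most like *Fos* were *Egr1*, *Junb* and *Ier2* (r = 0.85, 0.81 and 0.80), and those most like *Egr1* were *Ier2* and *Fos* (0.87 and 0.85). *Fosl2* was closest to *Arid5a*, *Csrnp1* and *Slc10a6* (0.95, 0.93 and 0.92), *Junb* to *Zfp217*, *Bcl3* and *Sbno2* (0.93, 0.92 and 0.92) and *Myc* to *Gadd45g* and *Adamts1* (0.90 and 0.86). *Atf3* was closest to *Slc38a2* and *Jund* to *Akr1a1* (0.83 and 0.81), while the best matches of *Jun*, *Fosl1* and *Fosb* reached 0.69, 0.64 and 0.62. These are descriptions over hearts that share depth and library preparation, and carry no test.

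Genes around the members were described by lists. Over all genes tested, 30.1% were called in acute Doxo vs. Ctrl (14.7% higher, 15.4% lower). In Doxo-NMN vs. Doxo 17.1% were called (8.17% higher, 8.88% lower). No test compared the share of a list with that over all genes. Of 24 tested other immediate early genes (26 listed), 16 were higher and 3 lower in acute Doxo vs. Ctrl, with a median log2 fold change of 1.04, and 12 were lower and none higher in Doxo-NMN vs. Doxo (median -0.77). *Csrnp1*, a nuclear factor induced by AXIN1, rose from 10.3 to 84.2 CPM (means, log2 3.03 ± 0.29, adjusted p = 7.82e-11) and was 20.99 CPM with NMN. *Btg2*, an antiproliferative p53 target, rose from 40.04 to 328 CPM (log2 3.03 ± 0.30, adjusted p = 1.48e-10) and was 62.5 CPM with NMN. *Nr4a1*, an orphan nuclear receptor, was 27.1, 130 and 75.1 CPM in the 3 groups, and its fall in Doxo-NMN vs. Doxo (log2 -0.79) was lost among hearts with low *Myl4* (-0.64, adjusted p = 0.153). The 3 lower genes were *Egr3*, *Klf10* and *Arc*.

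Of 11 tested partners of the bZIP class, *Batf*, *Maff* and *Mafk* were higher in Doxo vs. Ctrl and *Batf2* was lower (30.1% of all genes called). The median log2 fold change of the 11 was 0.25. *Mafk*, a small MAF protein, was 50.3, 144 and 62.4 CPM in Ctrl, Doxo and Doxo-NMN hearts (log2 1.52 in Doxo vs. Ctrl, adjusted p = 2.26e-09, then -1.21 with NMN, adjusted p = 1.86e-06). *Batf*, a partner of JUN proteins in immune cells, averaged 0.415 CPM in Ctrl and 0.825 CPM in Doxo hearts, and its call was lost with voom (log2 0.56, adjusted p = 0.0917). The *Batf2* call was lost in either *Myl4* class.

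Upstream of the members, 22 genes of the MAP kinase cascades and their factors had a median of -0.07 in Doxo vs. Ctrl. Of the 22, 3 were higher and 2 lower (30.1% of all genes called). *Map3k8*, a MAP kinase kinase kinase of the ERK branch, was 4.03, 12.7 and 4.74 CPM in the 3 groups (log2 1.65 in Doxo vs. Ctrl, adjusted p = 5.61e-09). *Map2k3*, which activates p38, was 59.0, 105 and 60.6 CPM (log2 0.83, adjusted p = 1.31e-07). *Mapk14*, which encodes p38 alpha, was lower, at 83.1 CPM in Ctrl and 54.5 CPM in Doxo (log2 -0.61, adjusted p = 3.48e-08), and its change was just under 1.5-fold among hearts with low *Myl4* (-0.58).

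Of 12 MAP kinase phosphatases and EGR1 corepressors, *Dusp2*, *Dusp4* and *Dusp5* were higher and *Dusp6* and *Dusp7* lower in Doxo vs. Ctrl. Their median was -0.21, and 30.1% of all genes were called. *Dusp5*, a nuclear ERK phosphatase that is itself induced by ERK, was 6.25, 14.7 and 5.28 CPM in the 3 groups (log2 1.23 and -1.47), although among hearts with high *Myl4* the Doxo effect was 0.50. *Dusp7*, a cytoplasmic ERK phosphatase, went the other way at 46.05, 16.9 and 31.5 CPM (log2 -1.44 and 0.90). *Dusp2*, an inducible nuclear phosphatase, was 0.469, 1.43 and 0.382 CPM, and its call was lost among hearts with high *Myl4* (0.76, adjusted p = 0.0583).

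Among 17 tested genes listed as AP-1 targets (of 20), 9 were higher and 3 lower in Doxo vs. Ctrl (30.1% of all genes called). In Doxo-NMN vs. Doxo, 2 were higher and 10 lower (17.1% of all genes called). The medians were 0.81 and -0.72. *Sphk1*, the kinase that makes sphingosine 1-phosphate, was 1.58, 15.1 and 2.67 CPM in Ctrl, Doxo and Doxo-NMN hearts (log2 3.24 ± 0.33, adjusted p = 3.04e-10, then -2.49 ± 0.33, adjusted p = 5.97e-07). *Plaur*, the urokinase receptor, was 2.597, 7.77 and 2.21 CPM (log2 1.58 and -1.81). *Ccnd1*, the cyclin of G1, was lower at 35.4, 14.4 and 23.4 CPM (log2 -1.29, adjusted p = 2.94e-07).

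Around *Myc*, 3 of 10 tested network factors were higher (*Mxd1*, *Mnt* and *Mlxip*) and *Mycn* was lower in Doxo vs. Ctrl. The median of the 10 was 0.33, and 30.1% of all genes were called. *Mycn*, the MYC paralog of the developing heart, was 3.37 CPM in Ctrl and 0.719 CPM in Doxo hearts (log2 -2.21 ± 0.46, adjusted p = 6.87e-05). *Mxd1*, a MAX partner that opposes MYC, was 7.48, 13.9 and 8.56 CPM in the 3 groups. Of 22 listed MYC targets, 6 were higher (*Ncl*, *Npm1*, *Nop56*, *Wdr43*, *Mybbp1a* and *Gnl3*) and *Cad* was lower, with a median of 0.31. Over all genes tested, 14.7% were called higher and 15.4% lower. *Ncl*, the nucleolar protein nucleolin, was 240.2, 422 and 279 CPM (log2 0.81 and -0.60), and *Gnl3*, nucleostemin, 19.3, 40.2 and 21.7 CPM (log2 1.06 and -0.89). *Cad*, of pyrimidine synthesis, was 16.3, 9.79 and 15.6 CPM (log2 -0.74 and 0.67).

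**Figure D4:**
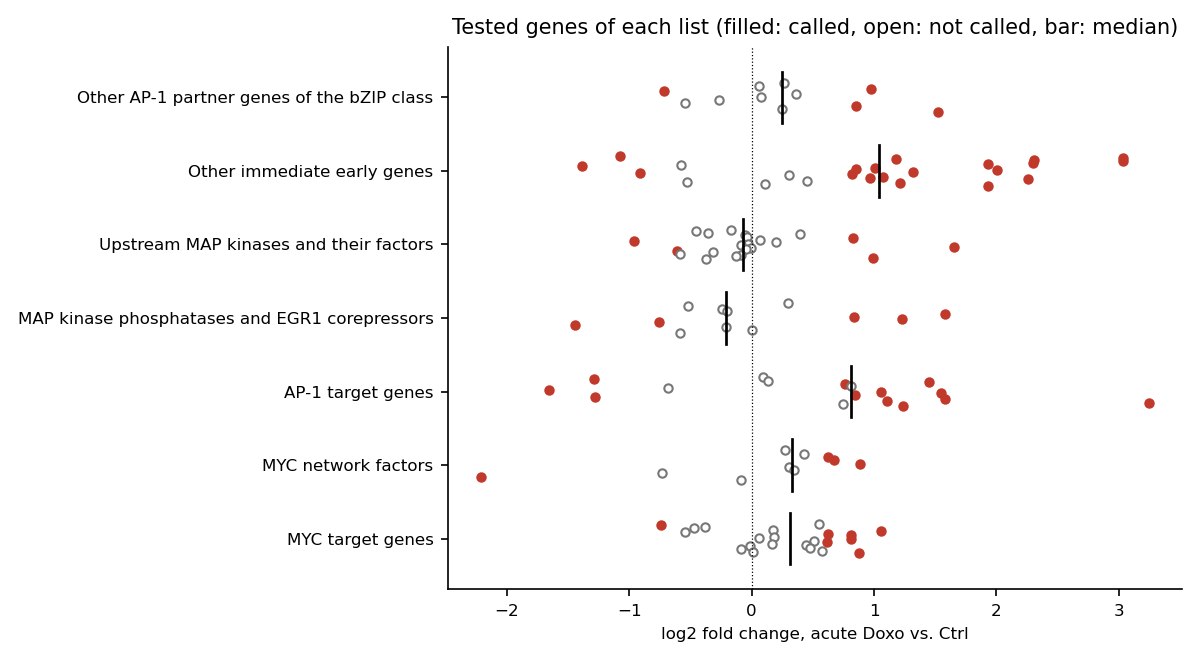
Log2 fold change in acute Doxo vs. Ctrl of every tested gene of the 7 lists around the members, where filled points are called and bars are medians. The other immediate early genes (median 1.04) and AP-1 targets (0.81) lie mostly to the right of 0. The MAP kinase genes (median -0.07) lie on both sides of 0.

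In the chronic study 0 of the 10 members were called in any comparison (edgeR, adjusted p under 0.05), and DESeq2 and limma voom also called 0. Over all genes 0.0602% were called in Doxo vs. Ctrl, 0% in Doxo-NMN vs. Doxo and 0.0401% in Doxo-NMN vs. Ctrl. An unadjusted p under 0.05 (edgeR) was reached by 1, 2 and 5 members respectively. Over all 14960 genes tested it was reached by 1174, 441 and 707. The 2 members in Doxo-NMN vs. Doxo were *Fos* and *Fosb*, whose changes without Doxo-NMN replicate 3 are given below. EdgeR called no gene of the 7 lists. The lowest adjusted p among the listed immediate early genes was that of *Ctgf*, a matricellular growth factor named here after its values were seen. Its mean levels in the 3 groups were 36.6, 168 and 70.2 CPM (log2 2.20 ± 0.42 in Doxo vs. Ctrl, adjusted p = 0.0566, edgeR). It was called in Doxo vs. Ctrl with DESeq2 (2.21, adjusted p = 0.00119), with limma voom (1.55, adjusted p = 0.000389), without the low-count filter and without Doxo replicate 1, 2, 3, 4 or 5 (1.43 without replicate 2), and in Doxo-NMN vs. Ctrl where only the 2 groups were fitted (0.935, adjusted p = 0.0462).

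*Myc* gave the lowest chronic p in Doxo vs. Ctrl. The 5 Ctrl hearts had 2.61, 1.65, 1.64, 1.70 and 2.21 CPM, and the 6 Doxo hearts ranged from 2.96 to 10.8 CPM, all above the Ctrl hearts. No share over all tested genes is given for such separations, here or for *Atf3* below. The log2 change was 1.22 ± 0.34 (edgeR, unadjusted p = 0.00168, adjusted p = 0.418), and 0.78 without Doxo replicate 2. That heart had *Myc* at 10.8 CPM (others 2.96 to 3.63) and *Fosl2* at 90.4 CPM (others 35.1 to 53.3), with the lowest *Egr1* (6.95 CPM, others 23.1 to 39.9), *Fos* (1.44 CPM) and *Fosb* (0.345 CPM) of its group. Its red cell genes summed to 16.2 CPM (others 183 to 355) and its neutrophil genes to 7.41 CPM (others 1.86 to 4.35). It was also the lowest of its group for the cardiomyocyte (61631 CPM), fibroblast (432, others 568.2 to 688), endothelial (709.8, others 921 to 1278) and macrophage sums (73.3, others 77.7 to 103), and the highest for the atrial sum (536, others 124 to 431). The part of these markers in its values was not tested. *Atf3* was 0.79 higher on the log2 scale (adjusted p = 0.647), with 5 of 6 Doxo hearts above every Ctrl heart, and the other 8 members lay between -0.15 and 0.41. The chronic medians of *Jun* in Ctrl, Doxo and Doxo-NMN hearts were 108, 92.4 and 106 CPM, and those of *Fosl2* 44.2, 43.9 and 42.2 CPM.

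In Doxo-NMN hearts 1 library, replicate 3, stood far above the others for *Fosb*, *Fos* and *Egr1*. *Fosb* was 174 CPM (3698 counts) in that heart and 0.496, 2.02, 2.08, 4.10 and 0.671 CPM in the other 5. *Fos* was 104 CPM (others 0.827 to 15.5), *Egr1* 217 CPM (others 11.3 to 59.0), *Jun* 203 CPM (others 51.003 to 124), *Junb* 90.6 CPM (others 17.1 to 47.3) and *Atf3* 23.2 CPM (others 2.15 to 14.4). *Myc*, at 2.63 CPM, was not among the raised genes. The heart was the highest of all 17 for 6 members and for 10 of 25 tested other immediate early genes, among them *Egr2* (8.82 CPM, others up to 2.12), *Egr3* (29.9 CPM, others up to 5.91) and *Nr4a1* (188 CPM, others up to 129). It was singled out here by its member levels, so the count over members restates that choice. No such share was counted over all tested genes, so whether this is particular to these genes was not tested. Its marker sums lay within the range of the other 5 Doxo-NMN hearts, except that its cardiomyocyte genes were the highest at 81894 CPM (others 55421 to 77455).

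With that heart, the changes in Doxo-NMN vs. Doxo were 4.48 for *Fosb*, 2.40 for *Fos* and 1.08 for *Egr1* on the log2 scale (adjusted p = 0.999 for each, edgeR). Without it they were 0.48, 0.36 and -0.07. In Doxo-NMN vs. Ctrl, *Fosb*, *Fos*, *Egr1* and *Atf3* changed from 4.63, 2.72, 1.49 and 1.03 to 0.62, 0.68, 0.34 and 0.69 when it was left out, and *Myc* was 0.78 with it.

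**Figure D5:**
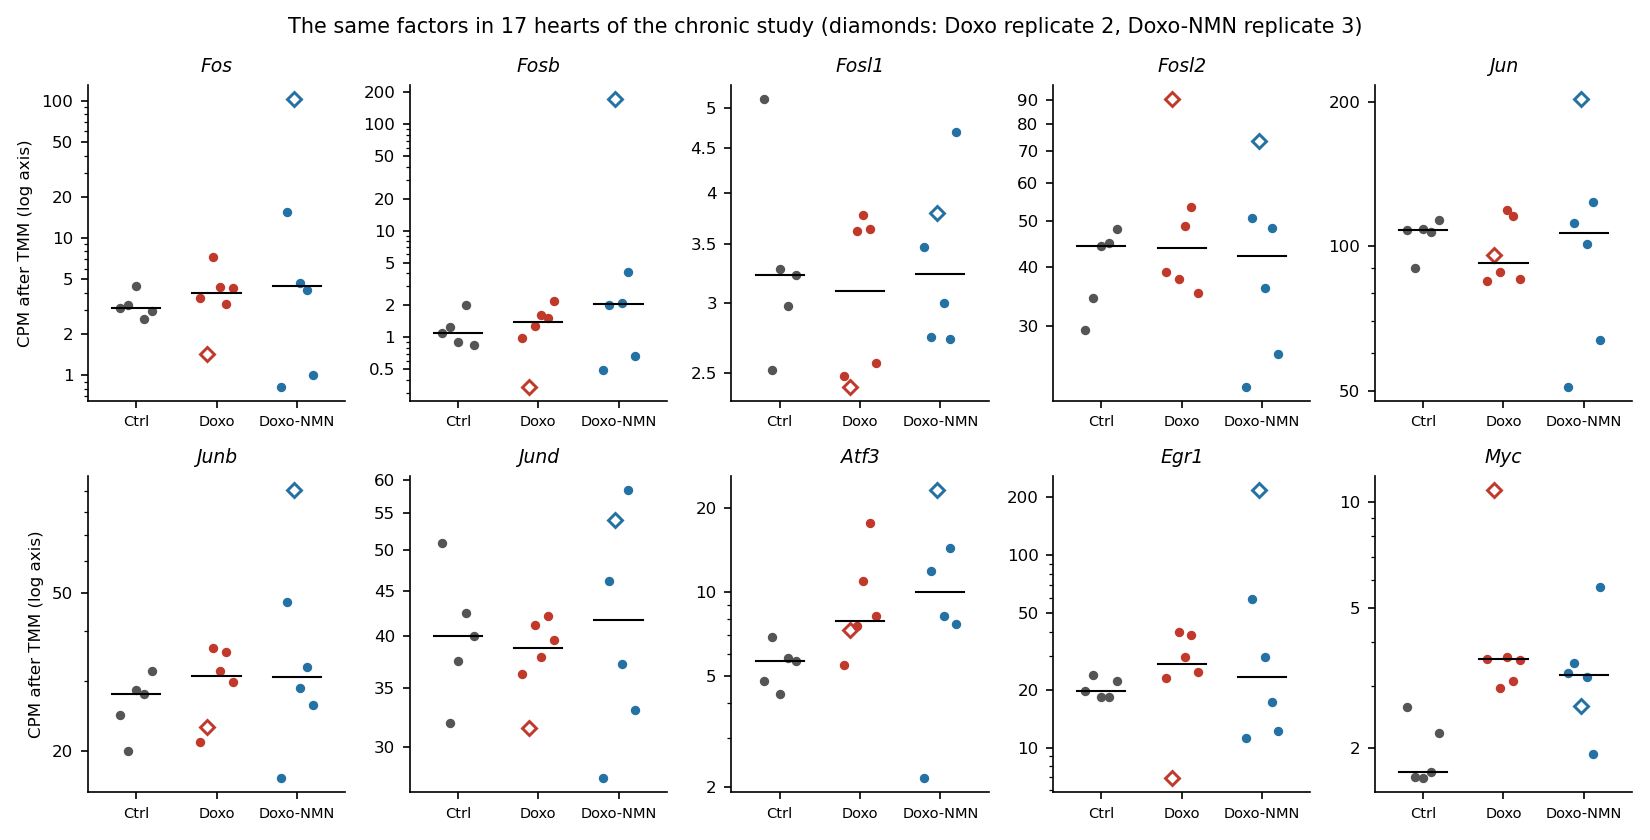
CPM after TMM scaling (log axis) of each member in every chronic heart by group, with a bar at the median and diamonds for Doxo replicate 2 and Doxo-NMN replicate 3. The Doxo-NMN diamond lies above the other hearts for *Fosb* (174 CPM), *Fos* (104 CPM) and *Egr1* (217 CPM), and the Doxo diamond for *Myc* (10.8 CPM).

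The acute and chronic Doxo effects were compared in 1 fit of all 57 hearts, where 23.6% of 15152 genes differed at an adjusted p under 0.05 (edgeR). Of the members 4 differed, all with the larger effect in the acute study: *Junb* by 2.64 ± 0.57 on the log2 scale (adjusted p = 0.00136), *Fosl2* by 2.43 ± 0.43 (adjusted p = 2.62e-04), *Myc* by 1.76 ± 0.58 (adjusted p = 0.0239) and *Jund* by 0.524 ± 0.20 (adjusted p = 0.0476). *Fos* (1.91, 95% interval -0.14 to 3.96, adjusted p = 0.165), *Atf3* (0.80), *Egr1* (0.76), *Jun* (0.35), *Fosl1* (0.10) and *Fosb* (0.05) did not pass. In chronic Doxo vs. Ctrl, the 95% intervals of *Fos* (-1.60 to 2.25), *Atf3* (-0.03 to 1.62) and *Egr1* (-0.86 to 1.68) held the acute change of that gene, and those of *Fosl2* (up to 0.91), *Junb* (up to 0.78) and *Myc* (up to 1.92) ended below it.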

How the data were processed

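Whole-heart poly(A) RNA was sequenced single-end (NovaSeq) in 57 mouse hearts. Per the labels and the study's methods, the authors mapped reads to mm10 with STAR (2.7.3a in the submitters' processing notes) and counted them per gene with featureCounts 2.0.0. The deposited values are raw counts per gene symbol, and annotation and strand setting are not given in the sources used here. Of acute counts of 1 to 20, 70.9 to 78.6% were even (chronic 39 to 41.9%), and a fit with acute counts divided by 2 was among the alternatives.

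Each study's 3 groups were fitted together in edgeR 4.0.16 (R 4.3.3; filterByExpr, TMM, quasi-likelihood F-test), with Benjamini-Hochberg adjustment over all genes tested. Acute calls needed adjusted p under 0.05 and 1.5-fold, and chronic calls and the test of acute minus chronic Doxo effect (gene symbols found once in both tables) adjusted p under 0.05. SE is the log2 fold change over the root of F. CPM used TMM library sizes, and a prior count of 2 on the log2 scale. Lengths are merged exons of GENCODE M21. Hearts were also split at 100 CPM of the atrial gene *Myl4*. DESeq2 1.42.0, limma 3.58.1 voom and leaving out each heart were among the alternatives. The fit was tested on simulated data. No 2 libraries of the same group agreed within sampling noise (lowest chi-square per gene 8.75 acute, 3.75 chronic). Libraries of different groups were not compared in this way. P-values measure the spread between hearts, each labelled as a separate sample.

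The members and lists were chosen with earlier results of these data known. All members are named; of each other list, up to 5 genes with the lowest adjusted p among those called in acute Doxo vs. Ctrl, the 2 with the lowest in acute Doxo-NMN vs. Doxo and any called in a chronic comparison (at most 4) could be named. Other genes named in counts of 5 or fewer were chosen after their values were seen. Correlations used 100000 permutations.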

Additional observations from a re-analysis of the deposited data

Results flagged for a closer look

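Only the 3 chronic groups were small enough for this test, and the acute groups of 13 or 14 hearts were not tested. The test used levels on the log2 scale. In 4 of the 30 chronic combinations of member and group, a heart lay farther from the others of its group than Dixon's 95% limit allows, which chance does in about 1 in 20. *Fosb* was 174 CPM in chronic Doxo-NMN replicate 3, *Myc* was 10.8 CPM and *Egr1* 6.95 CPM in chronic Doxo replicate 2, and *Jun* was 90.2 CPM in chronic Ctrl replicate 2, the lowest of its group. The first 3 belong to hearts that also stood apart in other members.

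The Doxo effect was larger in the acute than in the chronic study for *Fosl2* (difference 2.43 on the log2 scale), *Junb* (2.64), *Myc* (1.76) and *Jund* (0.524), by the test of the difference itself. These 4 also passed with Ctrl and Doxo hearts alone, with DESeq2, with acute counts divided by 2 and without acute Doxo replicate 6. Study, site, age, route and time point cannot be told apart.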

How the results depend on the processing

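The acute calls in Doxo vs. Ctrl and Doxo-NMN vs. Doxo kept 6 members each without any 1 heart (6 to 7 in the latter), and Doxo-NMN vs. Ctrl kept 2 to 3. Apart from leaving out a heart, 699 of the members' values kept their side of the threshold, 11 lost a call, 4 gained one and 0 reversed. No member was called in Doxo-NMN vs. Ctrl within either *Myl4* class (0, against 3), where fewer hearts were compared.

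Over all genes, dropping the fold limit gave 9694 calls in acute Doxo vs. Ctrl (against 4289), 7554 in the test of Doxo-NMN against Doxo (2428) and 3705 against Ctrl (1012). In Doxo-NMN vs. Ctrl, no low-count filter gave 1698, at least 10 counts in every heart 647, and low and high *Myl4* alone 575 and 599. In the chronic study, Doxo vs. Ctrl (9 genes) gave 15 without the filter, 0 with 10 counts in every heart, 24 with DESeq2 and 54 with voom, and 5 to 11 without any 1 heart, the 5 without Ctrl replicate 2, 3 or 5. Chronic Doxo-NMN vs. Ctrl (6 genes) gave 0 with 10 counts and 26 with voom. Causes were not tested.

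Same-numbered hearts shared only a number: their deviations had a median correlation of 0.0605 (acute) and 0.0223 (chronic), and 4 of 40 and 3 of 17 hearts correlated best with their own number. With the replicate block, 6, 6 and 2 members were called in the acute comparisons (*Egr1* in Doxo-NMN vs. Ctrl fell to -0.82, adjusted p = 0.0904, edgeR) and 0 in the chronic ones.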
